A study of Mus musculus with 4 samples.

Results

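Matrix metalloproteinases (MMPs) are zinc-dependent enzymes that cut collagens, laminins and other proteins outside the cell, and tissue inhibitors of metalloproteinases (TIMPs) bind and block them. In skin they are known from wound repair, where keratinocytes at the wound edge and fibroblasts of the dermis make different members. Most are secreted as inactive precursors that need a cut to become active, so transcript level and enzyme activity are not the same quantity. The genes described here are 10: the gelatinases Mmp2 and Mmp9, the collagenase Mmp13, the stromelysins Mmp3 and Mmp10, Mmp11, the elastase Mmp12, the membrane-bound Mmp14, and the inhibitors Timp1 and Timp3. They were chosen by gene name among the non-control spots of 4 scanner files. Together they have 12 of the 39426 probes measured, in 21 of 43020 spots, and they are 10 of 30340 genes or targets on the array.

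Keratinocytes came from whole skin of newborn C57BL/6 mice, digested in collagenase A (0.05%), and were grown for 3 days. The groups were Pla2g2f−/− cells held for 48 h with 1 mM CaCl2, Pla2g2f−/− cells held without it, Pla2g2f+/+ cells with it and Pla2g2f+/+ cells without it. Pla2g2f encodes a secreted phospholipase A2, and raising calcium is the common way to make cultured keratinocytes stop dividing and differentiate. Each group is 1 array of RNA pooled from 6 mice of its genotype, so the differences below carry no p-value and were not checked in a replicate. Genotype and the preparation of the cells cannot be told apart.

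On the arrays 26406 to 27060 of 39426 probes were well above background, and 19227 genes were so on all 4. The errors given are those that the scanner software assigns to a spot, and they hold no spread between cultures or mice. Pla2g2f itself was lower in −/− cells by −0.49 log2 with calcium and −0.43 without, less than 2-fold. Its probe may lie outside the deleted part, which the labels do not give, so this checks nothing about them. All 10 keratinocyte markers looked at were well above background with calcium in both genotypes, and 9 were without calcium, Krt1 being the exception.

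Of the 10 described genes, 9 were well above background on every array. A level is the log2 signal minus the array's 75th percentile, and levels are compared only between arrays for one probe, since probes differ in brightness. Probe positions are those of the array files on mm9, for which no exon or UTR annotation was used here. At 2-fold or more, 5 of 9 genes compared differed between genotypes without calcium, against 8.97% of all 21346 genes compared. With calcium 4 of 10 did, against 9.6% of 21564. For calcium, 3 of 10 genes reached 2-fold in −/− cells, against 3.59% of 21428 genes. In +/+ cells 1 of 10 did, against 3.48% of 21129. The genes were chosen with earlier results of these data known, so these counts are a description and test no enrichment.

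**Figure D1:**
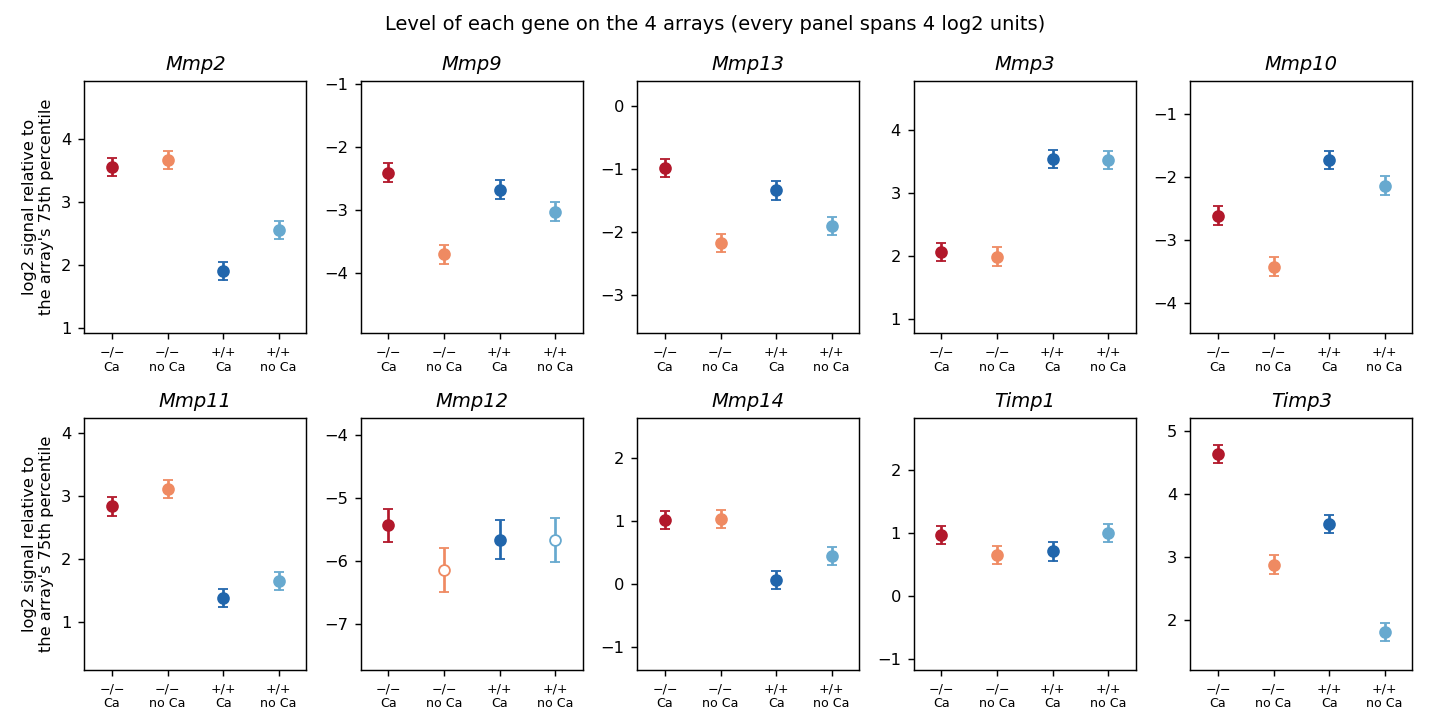
Level of each gene (log2 signal relative to the array's 75th percentile, vertical axis) on the 4 arrays (horizontal axis, 1 point each); bars are the scanner software's error and open points are not well above background. Mmp2, Mmp11 and Mmp14 are higher in both −/− cultures, Mmp3 and Mmp10 lower, and Timp3 is higher with calcium in both genotypes.

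Mmp13, Mmp12, Mmp3 and Mmp10 stand in that order in one cluster of Mmp genes on chromosome 9. The 250 bases before their start sites are shown because a known control site of this family, the AP-1 site (TGANTCA on either strand, in capitals), lies in each. They are RefSeq sequences on GRCm38.p6, all on the plus strand and ending at the base before the start, at chr9:7272264-7272513 for Mmp13, chr9:7347124-7347373 for Mmp12 (a second start, 1 of 2 listed), chr9:7445572-7445821 for Mmp3 and chr9:7502092-7502341 for Mmp10.
Mmp13: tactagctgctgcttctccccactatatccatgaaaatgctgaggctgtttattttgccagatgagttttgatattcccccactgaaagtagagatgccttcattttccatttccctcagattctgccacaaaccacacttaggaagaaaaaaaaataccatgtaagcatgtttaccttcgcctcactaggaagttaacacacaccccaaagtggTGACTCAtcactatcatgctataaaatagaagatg
Mmp12: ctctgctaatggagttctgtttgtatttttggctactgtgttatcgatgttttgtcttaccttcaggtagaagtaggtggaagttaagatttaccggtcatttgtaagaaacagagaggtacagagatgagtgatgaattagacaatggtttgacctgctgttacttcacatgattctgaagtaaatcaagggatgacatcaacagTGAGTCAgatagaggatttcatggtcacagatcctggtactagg
Mmp3: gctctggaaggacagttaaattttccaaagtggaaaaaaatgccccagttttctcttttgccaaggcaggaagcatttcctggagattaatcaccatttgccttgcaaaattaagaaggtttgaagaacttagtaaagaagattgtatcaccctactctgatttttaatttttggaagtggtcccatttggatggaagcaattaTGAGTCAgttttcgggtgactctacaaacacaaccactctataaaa
Mmp10: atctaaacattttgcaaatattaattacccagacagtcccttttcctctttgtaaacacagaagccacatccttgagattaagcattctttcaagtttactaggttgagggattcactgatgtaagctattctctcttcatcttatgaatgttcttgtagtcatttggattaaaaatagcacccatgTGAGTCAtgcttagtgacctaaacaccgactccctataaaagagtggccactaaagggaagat
The AP-1 match ends 29, 38, 40 and 57 bases before the start of Mmp13, Mmp12, Mmp3 and Mmp10. Of 9 promoters matched for 8 of the genes, these 4 hold it, as do 6.75% of 32851 promoters of the same length. The TATA box (TATAAA on either strand) was found for Mmp13, Mmp3 and Mmp10, and in 12.4% of all promoters. The Ets family site PEA3 (AGGAAG on either strand) was found for 6 of the genes, namely Mmp12, Mmp13, Mmp3, Mmp14, Timp1 and Timp3, and in 29.5% of all promoters. For Mmp12 it lies before the other start, which holds no AP-1 match, and not in the stretch shown. A match is a run of letters and was not tested as a site, and Mmp2 and Mmp9 were not matched.

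Among the gelatinases, which cut denatured collagen and basement membrane collagen, Mmp2 was higher in −/− cells under both conditions and Mmp9 was not. Mmp2 (probe on chromosome 8 at 95376840 to 95376899, mm9) had levels of 3.56 and 3.67 in −/− cells with and without calcium, against 1.91 and 2.55 in +/+ cells. Both −/− cultures lay above both +/+ cultures, and the −/− cultures differed from each other by less than the scanner error. The genotype difference was 3.13-fold with calcium (log2 1.65, scanner error 0.20) and 2.16-fold without (1.11). In +/+ cells Mmp2 was 1.56-fold lower with calcium, and in −/− cells 1.08-fold lower. In such pooled RNA fewer cells of a type and less RNA per cell cannot be told apart.

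Mmp9 (chromosome 2, 164780620 to 164780679, mm9) is printed on each array 10 times, which shows how closely 1 hybridisation repeats itself. The lowest, median and highest of the 10 spots were −2.46, −2.42 and −2.33 in −/− cells with calcium and −3.82, −3.69 and −3.61 without it. They were −2.81, −2.68 and −2.60 in +/+ cells with calcium and −3.14, −3.03 and −2.90 without it. The 4 sets of spots did not overlap, and their SD was 0.03 to 0.07 log2 within an array. These spots share 1 labelled RNA and say nothing of another culture.

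The means gave a calcium response of Mmp9 of 2.46-fold in −/− cells (log2 1.30, scanner error 0.21) and 1.27-fold in +/+ cells (0.35). Without calcium Mmp9 was 1.60-fold lower in −/− than in +/+ cells, and with calcium it was 1.21-fold higher. The −/− culture without calcium was thus the lowest of the 4 arrays and the −/− culture with calcium the highest.

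Mmp13 (chromosome 9, 7282762 to 7282821, mm9), the main collagenase of fibrillar collagen in rodents, ordered the arrays as Mmp9 did. Its levels were −0.98 and −2.17 in −/− cells with and without calcium, against −1.33 and −1.90 in +/+ cells. Both calcium-treated cultures lay above both untreated ones. The calcium response was 2.28-fold in −/− cells (log2 1.19, scanner error 0.20) and 1.48-fold in +/+ cells (0.57). The genotype difference was small, 1.27-fold higher in −/− cells with calcium and 1.21-fold lower without.

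The stromelysins Mmp3 and Mmp10, close relatives that cut a wide range of matrix proteins and other pro-MMPs, were lower in −/− cells. Mmp3 (chromosome 9, 7455751 to 7455810, mm9) had levels of 2.069 and 1.998 in −/− cells with and without calcium, against 3.54 and 3.53 in +/+ cells. The genotypes did not overlap, and within a genotype the pair of cultures differed by less than the scanner error. Mmp3 was 2.78-fold lower in −/− cells with calcium (log2 −1.48) and 2.88-fold lower without (−1.53, scanner error 0.20 for both). Without calcium it ranked 179th from the lowest among the 21346 genes compared.

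Mmp10 (chromosome 9, 7510011 to 7510070, mm9), a product of migrating wound-edge keratinocytes, differed by both genotype and calcium. Its levels were −2.61 and −3.42 in −/− cells with and without calcium, against −1.73 and −2.14 in +/+ cells. Each step between arrays in the order of level exceeds the scanner error, with both −/− cultures below both +/+ cultures. It was 1.84-fold lower in −/− cells with calcium and 2.44-fold lower without (log2 −1.29, scanner error 0.21). Calcium-treated cells had 1.75-fold more signal in −/− and 1.32-fold more in +/+ cells.

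Mmp11, also called stromelysin 3 and known mostly from fibroblasts near epithelium, was higher in −/− cells by both of its probes. By the brighter probe (chromosome 10, 75386024 to 75386083, mm9) the levels were 2.84 and 3.11 in −/− cells with and without calcium, against 1.38 and 1.65 in +/+ cells. Both genotypes were slightly lower with calcium, by 1.21-fold each. The genotype difference was 2.74-fold with calcium (log2 1.46) and 2.75-fold without (1.46, scanner error 0.20 for both). The other probe (75386209 to 75386268) gave 3.23-fold and 2.89-fold.

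Mmp12, the elastase of macrophages, was near the detection limit. Its brighter probe (chr9:7352935-7352994, mm9, plus strand) is shown since the Mmp12 levels given next rest on it.
Mmp12 probe: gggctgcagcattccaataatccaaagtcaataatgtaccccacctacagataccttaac
It had levels of −5.44 and −6.15 in −/− cells with and without calcium, against −5.66 and −5.67 in +/+ cells, and was well above background only on the arrays with calcium. No neighbours in this order differ beyond the scanner error, which reached 0.50. With calcium the −/− level was 1.17-fold that of +/+ cells. The −/− response was 1.64-fold (log2 0.72, scanner error 0.44), taken from a value not well above background. The other probe, at 7360373 to 7360432, was not well above background on any array. In the same cultures 10 of 12 myeloid markers were at least 2-fold higher in −/− cells with calcium, against 6.55% of all genes. Adgre1 was 16.5-fold higher, Cd14 1.18-fold higher and Itgam 1.86-fold lower. The relation of these markers to Mmp12 was not tested.

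Mmp14 (chromosome 14, 55058775 to 55058834, mm9), a membrane-anchored enzyme that activates pro-Mmp2, showed the order of Mmp2 at a smaller size. Its levels were 1.01 and 1.03 in −/− cells with and without calcium, against 0.05 and 0.44 in +/+ cells. The −/− cultures lay above both +/+ cultures and did not differ from each other beyond the scanner error. The genotype difference was 1.94-fold with calcium (log2 0.96, scanner error 0.20) and 1.51-fold without (0.59). Under quantile scaling the first was just past 2-fold (log2 1.02).

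Of the inhibitors, Timp3, which stays bound to the matrix and also blocks the sheddase Adam17, had the widest range of the genes described, 2.83 log2. Its levels (chromosome 10, 85811696 to 85811755, mm9) were 4.64 and 2.88 in −/− cells with and without calcium, against 3.52 and 1.81 in +/+ cells. Each array differed from the next in the order of level by more than the scanner error.

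Timp3 was 3.38-fold higher with calcium in −/− cells (log2 1.76) and 3.28-fold higher in +/+ cells (1.71, scanner error 0.20 for both). It was also 2.17-fold higher in −/− than in +/+ cells with calcium (1.12) and 2.11-fold higher without (1.08). The difference of the calcium responses was 0.04 log2 with a scanner error of 0.29. Timp3 was the only gene of the 10 past 2-fold with calcium in +/+ cells.

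Timp1 (X chromosome, 20451802 to 20451861, mm9), a soluble inhibitor of most secreted MMPs, had the narrowest range, 0.35 log2. Its levels were 0.96 and 0.64 in −/− cells with and without calcium, against 0.70 and 0.99 in +/+ cells. With calcium it was 1.25-fold higher in −/− cells and 1.23-fold lower in +/+ cells. No comparison of Timp1 reached 2-fold.

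**Figure D2:**
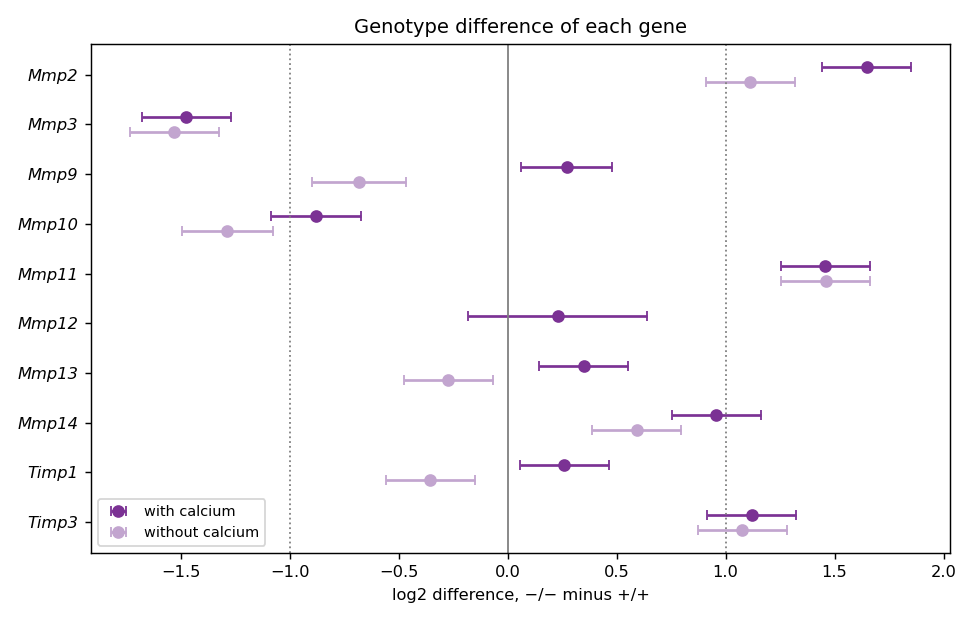
Genotype difference of each gene (log2, −/− minus +/+, horizontal axis) with and without calcium; bars are the scanner error and dotted lines mark 2-fold. Mmp2, Mmp11 and Timp3 lie past 2-fold on the high side under both conditions, and Mmp3 on the low side.

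**Figure D3:**
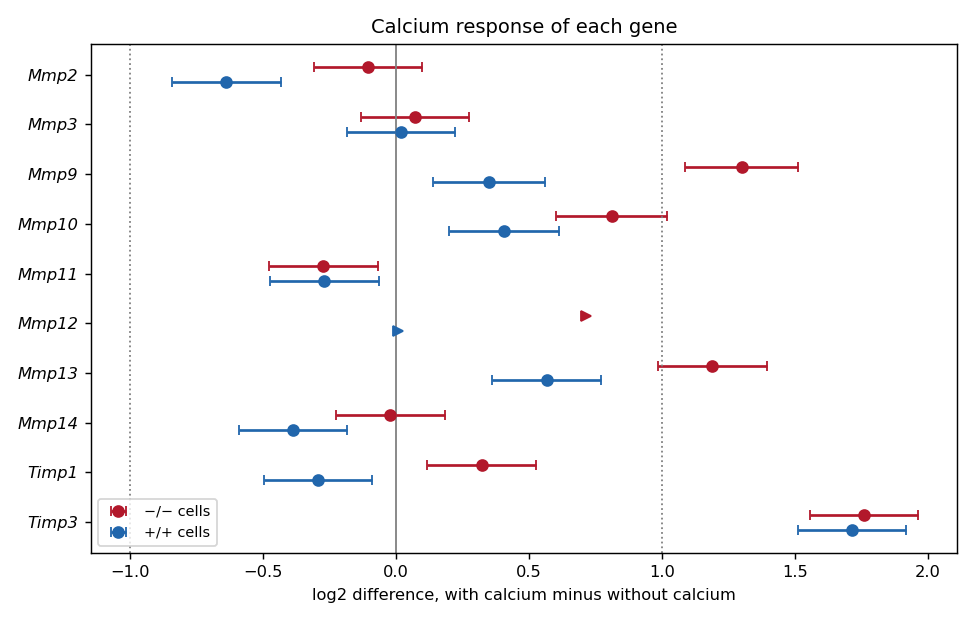
Calcium response of each gene (log2, with minus without calcium, horizontal axis) in −/− and +/+ cells. Bars are the scanner error and dotted lines mark 2-fold. Triangles, drawn without error, are differences in which the array without calcium was not well above background. Timp3 is past 2-fold in both genotypes, and Mmp9 and Mmp13 in −/− cells.

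Over the group, the direction of the genotype difference split the genes. Without calcium 3 were at least 2-fold higher in −/− cells (Mmp2, Mmp11, Timp3) and 2 lower (Mmp3, Mmp10), against 4.65% and 4.32% of all genes. The median of the 9 compared was −0.27 log2, against −0.18 over all genes. With calcium 3 were higher and 1 lower (Mmp3), against 6.55% and 3.05%. The median of the 10 was 0.31, against −0.16.

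Those of the 10 past 2-fold with calcium were all higher, 3 in −/− cells and 1 in +/+ cells, against 2.99% and 2.47% of all genes on that side. The calcium responses had a median of 0.52 in −/− cells and 0.01 in +/+ cells, against −0.03 and −0.07 over all genes. The 4 comparisons reuse the same 4 arrays and are not independent of each other. The difference of the responses, −/− minus +/+, was positive for 8 of 9 genes measured on all arrays, and past the scanner error for 6. Its median was 0.41, against 0.02 over all genes, and the share of all genes above 0 was not counted. None of the 9 reached 2-fold, where 2.54% of 19227 genes did, 1.91% above 0 and 0.629% below. Mmp9 came nearest at 0.95 log2 (scanner error 0.30), followed by Mmp13 and Timp1 at 0.62 each. Mmp11, at −0.00, was the one below 0, and its sign turned under normexp correction, quantile scaling and the mean of its probes.

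Pattern over the 4 arrays was compared by the distance between levels centred on each gene's mean, among 14416 genes well above background throughout, clone names and predicted gene models left out. Within the group the nearest pairs were Mmp2 with Mmp11 and Mmp9 with Mmp13, each at 0.30 log2. Over all genes the nearest to Mmp2 was Gas6, a ligand of TAM receptors, at 0.06. The nearest to Mmp11 were Ralgapa2 at 0.03 and Kit, the stem cell factor receptor of mast cells and melanocytes, at 0.08. The nearest to Mmp3 was Otud7a at 0.09, to Mmp9 Vmn1r63 at 0.10 and to Mmp10 Nudt10 at 0.08. Timp3 lay nearest to Blnk, an adaptor of B cell receptor signalling, at 0.13, and Mmp13 to Artn, a ligand of the GDNF family, at 0.19. With 4 arrays such distances are a description of these libraries.

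The chromosome 9 cluster held differences in both directions among neighbours. RefSeq (GRCm38.p6) lists 10 Mmp genes there, in the order Mmp13, Mmp12, Mmp1b, Mmp3, Mmp1a, Mmp10, Mmp8, Mmp27, Mmp20 and Mmp7. Without calcium Mmp1b, a rodent collagenase gene and paralogue of Mmp1a, was 2.82-fold lower in −/− cells, beside Mmp3. Mmp7, matrilysin, was 2.15-fold lower without calcium, where its −/− level (−6.45) was not well above background. With calcium Mmp1b and Mmp7 were 1.37-fold and 1.41-fold lower in −/− cells. Mmp27, next to Mmp8, was 2.44-fold higher without calcium and 5.32-fold higher with it. Mmp8, the collagenase of neutrophils, was 1.93-fold higher with calcium, while Mmp1a and Mmp20 were not well above background on any array.

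**Figure D4:**
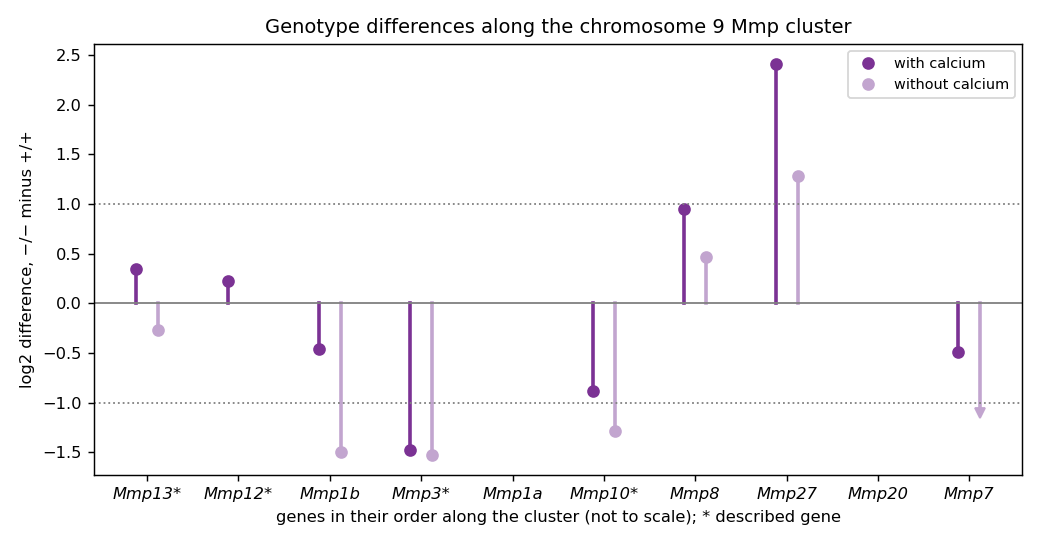
Genotype difference (log2, −/− minus +/+, vertical axis) of the Mmp genes of chromosome 9 in genome order, with and without calcium. At the triangle the −/− array was not well above background, and genes without a point were not well above background. Mmp1b, Mmp3, Mmp10 and Mmp7 lie below 0 and Mmp8 and Mmp27 above it under both conditions.

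Other genes of the system were counted as whole lists. Of 15 other metalloproteinases 11 were compared with calcium, and 2 were at least 2-fold higher in −/− cells, Mmp27 and Mmp19 (2.32-fold), with 0 lower. Without calcium 1 of 11 was higher, Mmp27, and 2 were lower, Mmp1b and Mmp7. Over all genes 6.55% were higher and 3.05% lower with calcium, and 4.65% and 4.32% without. The list medians were 0.45 and 0.11 log2 with and without calcium, against −0.16 and −0.18 over all genes. Of the other inhibitors, Timp2, which with Mmp14 helps to activate pro-Mmp2, was 1.81-fold higher with calcium and 1.48-fold without. Timp4 was 3.02-fold and 2.40-fold higher, and the membrane inhibitor Reck 1.35-fold and 1.17-fold. All 3 inhibitors that could be compared were thus on the high side, with medians of 0.85 and 0.57.

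Among 14 ADAM and ADAMTS relatives, 5 were at least 2-fold higher in −/− cells with calcium and 2 without, with 0 lower. Over all genes 6.55% and 4.65% were higher. The list medians were 0.66 and 0.26, against −0.16 and −0.18 over all genes. Adamts15, an aggrecan-cutting enzyme, was 8.79-fold and 3.53-fold higher. Adamts2, which trims procollagen, was 2.86-fold and 2.52-fold higher. The sheddases Adam10 and Adam17 were within 1.31-fold of +/+ cells under both conditions.

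The protease plasmin activates several pro-MMPs. Of 14 genes of the plasmin system compared with calcium 1 was lower in −/− cells by just over 2-fold, the plasmin inhibitor Serpinf2. Over all genes 3.05% were at least 2-fold lower with calcium. The activator gene Plau was 1.20-fold higher with calcium and 1.14-fold without. Lcn2, whose product binds Mmp9, was 1.86-fold lower with calcium and 2.45-fold lower without, where it was the 1 gene of 13 past 2-fold. Over all genes 8.97% were past 2-fold without calcium. The list medians were −0.27 and −0.02, against −0.16 and −0.18 over all genes.

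Of the matrix proteins that these enzymes cut, 13 of 14 listed were compared, Col1a1 not being analysed here. With calcium 6 were at least 2-fold higher in −/− cells and 0 lower, and without calcium 3 and 0. Over all genes 6.55% were higher with calcium and 4.65% without. The list medians were 0.41 and 0.34, against −0.16 and −0.18 over all genes. Elastin (Eln) was 6.95-fold and 4.71-fold higher with and without calcium. Collagen III (Col3a1) was 2.85-fold and 2.16-fold higher, and the basement membrane collagen Col4a2 2.36-fold and 2.17-fold. The epidermal anchoring genes Lama3, Lamb3 and Col17a1 lay between −0.37 and −0.17 log2 under both conditions.

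Markers of other cell types moved with genotype beside the genes above. Of 12 fibroblast markers 11 were analysed. At least 2-fold higher in −/− cells were 7 with calcium and 1 without, against 6.55% and 4.65% of all genes. The list medians were 1.11 and 0.60 log2, against −0.16 and −0.18 over all genes. Signal summed over these markers is in units of the array's 75th percentile. It was 256 and 239 in −/− cells with and without calcium, against 136 and 151 in +/+ cells. All 11 were well above background on every array, Pdgfra being 2.58-fold higher with calcium and 1.65-fold without. Mmp2, Mmp11, Mmp14 and Timp3 lay on the same side under both conditions, as did the medians of smooth muscle, myeloid, mast cell and adipocyte markers. With calcium 8 of the 10 described genes were above 0, Mmp12 by less than the scanner error, and without calcium 4 of 9 were. The share of all genes above 0 was not counted. Mmp3 and Mmp10 lay below 0 under both conditions.

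Keratinocyte markers had medians of −0.28 with calcium and −0.20 without, against −0.16 and −0.18 over all genes, and 0 of them reached 2-fold either way. Their summed signal was 250.2 and 277 in −/− cells with and without calcium, against 354 and 342 in +/+ cells. Smooth muscle and pericyte markers had medians of 1.25 and 0.99, Rgs5 being dim throughout, and summed to 21.1 and 23.8 against 11.1 and 7.14.

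Myeloid markers had medians of 3.10 and 1.89 with and without calcium, with summed signals of 32.5 and 24.9 in −/− cells, against 7.02 and 8.48 in +/+ cells. Mast cell and adipocyte markers had medians of 3.77 and 3.15 with calcium and 3.28 and 2.95 without. Mast cell markers summed to 11.3 and 11.3 in −/− cells with and without calcium, against 1.665 and 1.498 in +/+ cells. Adipocyte markers summed to 97.5 and 120.1 in −/− cells, against 25.3 and 37.6 in +/+ cells. Of these lists the mast cell receptor subunit Ms4a2 and leptin (Lep) were not well above background on any array. Neutrophil markers, which bear on Mmp8 and Mmp9, had medians of −0.33 and −0.31, with Mpo, Ngp and Cxcr2 dim on all arrays, and summed to 2.49 and 2.46 in −/− cells, against 5.38 and 5.44 in +/+ cells. The markers of this list past 2-fold were S100a8 and S100a9, which keratinocytes are also known to make, 3.54-fold and 3.13-fold lower in −/− cells with calcium. Elane and Ly6g were within 1.19-fold of +/+ cells under both conditions. The neutrophil sums in +/+ cells rest mostly on S100a8 and S100a9, and no sum was taken without these genes. Their levels in +/+ cells with calcium were 1.05 and 1.07, against −0.54 for Elane and −1.03 for Ly6g. Endothelial markers had medians of −0.73 and −0.46. Above 0 was 1 of 5 compared with calcium and 1 of 6 without, Vwf at 2.39-fold and 1.70-fold. Emcn was 2.43-fold lower without calcium. The part of any of these cell types in the differences of the Mmp and Timp genes was not tested.

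The same lists were read for calcium within a genotype, where Timp3, Mmp9 and Mmp13 were past 2-fold. Fibroblast markers had a median calcium response of 0.19 log2 in −/− cells and −0.15 in +/+ cells, and keratinocyte markers 0.08 and 0.13. Myeloid markers had 0.49 and −0.56, and their response difference had a median of 1.18. Medians of the response difference were also above 0 for mast cell (0.71), adipocyte (0.42), fibroblast (0.40) and endothelial (0.14) markers, against 0.02 over all genes. They were below 0 for smooth muscle and pericyte (−0.61), keratinocyte (−0.08) and neutrophil (−0.02) markers. The response differences of Mmp9 and Mmp13 were above 0, and their relation to any list was not tested.

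**Figure D5:**
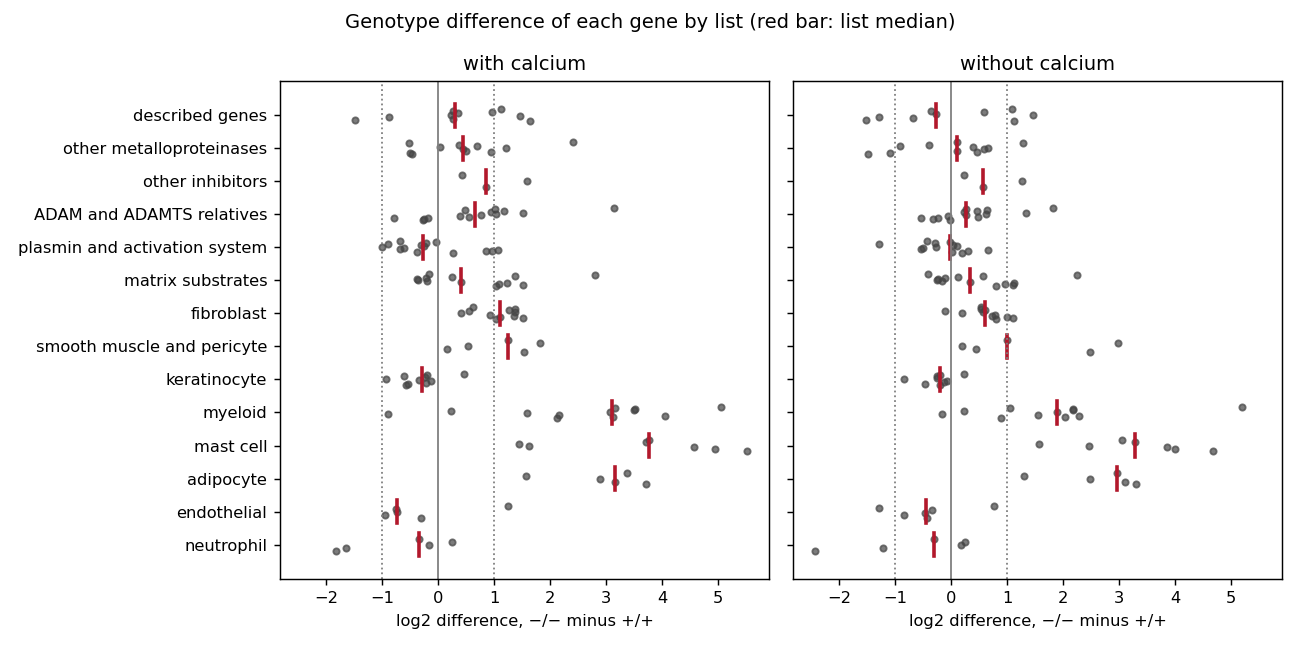
Genotype difference (log2, −/− minus +/+, horizontal axis) of every compared gene of each list, with calcium on the left and without on the right; red bars are list medians and dotted lines mark 2-fold. The described genes spread on both sides of 0 and fibroblast markers lie mostly above it, while the medians of keratinocyte markers (−0.28 and −0.20) are near those of all genes (−0.16 and −0.18).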

How the data were processed

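RNA (200 ng per array) was measured on 1-colour Agilent arrays. Each spot's deposited signal is an intensity on a linear scale. It comes from Agilent Feature Extraction 11.5.1.1, per the file headers and the submitters' processing notes, with spatial and multiplicative detrending on, per the file headers. The deposited value table is a ratio of each signal to its array's 75th percentile, from which it differed by at most 5.8e-04 in relative terms. Its medians were 0.0645, 0.0612, 0.0623 and 0.066 in −/− cells with and without calcium and +/+ cells with and without calcium.

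Outlier spots (105 to 116 per array) were dropped and none was saturated. Log2 of the deposited signal minus the array's 75th percentile (3299, 2889, 2737 and 2638 units, same order) was averaged over spots of a probe. A gene with several probes was represented by the brightest, and 27508 of 39429 probes were named by accession. A gene was compared where well above background on 1 array or both. A dim array was set at the higher of its own value and the lowest signal well above background there. Where its own value was the higher, as for Mmp7 and Mmp12, the result is the plain difference and no bound. Where the limit set for the dim array lay above the other array's signal, the result was set to no difference. Differences were counted at 2-fold with no test. Counting was tested on simulated data.

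Results of 2 listed genes are not reported here. Members and lists were chosen with earlier results of these data known. The genes named are the 10 described, members of the fixed lists, and the nearest patterns (up to 3 ranked per gene ranging over 1 log2 or more). Tools were Python 3.11.15, numpy 2.4.6, pandas 2.3.3, R 4.3.3 and limma 3.58.1.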

Additional observations from a re-analysis of the deposited data

Results flagged for a closer look

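For several genes the difference had opposite signs in the groups set side by side, 1 array each, and in no case was the difference between the groups tested. The genotype difference of Mmp9 was −0.68 log2 without calcium and 0.27 with calcium, so that the calcium response was larger in −/− than in +/+ cells by 0.95. That of Mmp13 was −0.27 without and 0.35 with calcium, a gap of 0.62. Timp1 had −0.35 without and 0.26 with calcium, also a gap of 0.62, and its calcium response was 0.32 in −/− cells and −0.29 in +/+ cells. Each of these gaps exceeds the scanner error of 0.29 to 0.30.

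Among the other metalloproteinases at least 2-fold apart in their responses, Mmp24 and Mmp27 also changed sign. The calcium response of Mmp24, a membrane-type enzyme, was 0.98 in −/− cells and −0.31 in +/+ cells, a gap of 1.29, and its genotype difference was −0.92 without and 0.37 with calcium. That of Mmp27 was 0.59 in −/− cells and −0.54 in +/+ cells, a gap of 1.13.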

How the results depend on the processing

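No paired analysis was possible because each group is 1 array. At 3-fold in place of 2-fold the number of the 10 genes past the threshold was 0 for the genotype difference without calcium and 1 with calcium (Mmp2). It was 1 for the calcium response of −/− cells and 1 for that of +/+ cells, Timp3 in both. Under the other 7 alternatives every such count stayed within 1.5 times its value: no filter on dim probes, a filter asking both arrays to be well above background, the value table of the authors, averaging each gene's probes, quantile scaling, a scale set by the median bright probe, and normexp (offset 50). Of 334 single values under these 7 alternatives, 330 moved by less than the scanner error and 1 crossed 2-fold, Mmp14 with calcium under quantile scaling. With no filter the median of all genes moved by −0.13 log2 for the genotype difference without calcium and by 0.10 for the response difference, and by less than 0.1 elsewhere. The sign turned in 6, all within 0.08 log2 of 0 and belonging to Mmp3, Mmp11 and Mmp14. The calcium response of Mmp9 in −/− cells was 1.04 log2 with normexp correction. That of Mmp12 was 0.23 with it. With the mean of its probes it was set to 0 by rule and is no estimate. The averaged level with calcium lay below the limit used for the dim array. The genotype difference of Timp3 with calcium was 1.36 under quantile scaling, and the cause of the other moves was not tested. Signal over background limits Mmp12 in every comparison, and 1 array a group limits all of them.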
